A study of Mus musculus with 3 samples.

Results

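Tag counts of RNA polymerase II (Pol_II) phosphorylated at Ser5 were examined over 38 genes that supply transfer RNAs with their amino acids or that respond to a shortage of amino acids. The genes were chosen by name from the GENCODE M1 annotation of mm9. They were the 20 genes of cytosolic aminoacyl-tRNA synthetases, 7 regulators of the integrated stress response and 5 enzymes of amino acid and one-carbon synthesis. The rest were 3 amino acid transporters and 3 genes of the response to stress in the endoplasmic reticulum (ER). All 38 symbols were found among the 22350 protein-coding genes of chromosomes 1 to 19 and X.

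The cells were bone marrow-derived macrophages (BMDM) of female mice of the Fvb strain (Fvb/Hsd in the study's methods) at day 7 of differentiation in medium conditioned by L929 cells, and their age and any pooling of mice were not given in the labels. Ser5 ChIP-Seq was made from untreated cells and from cells exposed to lipopolysaccharide (LPS, a component of the bacterial outer membrane) at 10 ng/ml for 2 h, and a library of input DNA came from untreated cells. The labels and the study's text name LPS alone for the treated Ser5 library, whereas the label of a picture in the study names LPS with gamma interferon. Whether interferon was present could therefore not be settled here. There was 1 library per condition, so no spread between replicates could be estimated, no test was made, and the 95% intervals given here cover counting error only. Differences between the Ser5 libraries compare these libraries, and a gene was called higher or lower where its TPM (tags per 1000000 tags of the library) differed by at least 2 times with at least 10 tags over both.

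The 3 libraries held between 6249819 and 7616771 usable tags. All 6 genes taken as a check of LPS treatment (Nfkbia, Tnf, Cxcl2, Il1b, Cxcl10 and Ccl5) were at least 6.18 times higher over their gene bodies in the library labelled LPS. The windows of 1 kb on each side of the transcription start site (TSS) of 6 macrophage markers lay above input in both Ser5 libraries. Those of 17 markers of T cells, B cells, erythroid cells, neutrophils and fibroblasts summed to 65 tags in untreated Ser5, 110 after LPS and 152 in input, with Cd79a, Hba-a1 and Camp above input in at least 1 Ser5 library; their part in the results was not tested. The median ratio of LPS to untreated over all coding genes with enough tags was 0.873 in the gene body (-0.20 on the log2 scale), 0.831 in the TSS window and 0.886 in the inner body (from 1 kb after the start to the gene end), so ratios near these values were typical of the pair of libraries. Tags were 45 bases long in the untreated file, 30 in the LPS file and 36 in the input file. Sequences of 30 bases that occur more than once in mm9 made up a median of 4.85% of the members' gene bodies, with a highest share of 18.3% at Iars, against 2.87% for sequences of 45 bases. The part of this difference in the ratios was not tested.

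Aminoacyl-tRNA synthetases join each amino acid to its transfer RNA, and they fall into class I, with a catalytic domain built on a Rossmann fold, and class II, built around an antiparallel beta-sheet. When an amino acid runs short, uncharged transfer RNA activates the kinase Gcn2, which phosphorylates the initiation factor eIF2. This lowers overall protein synthesis and raises translation of Atf4, a transcription factor that in turn activates genes for synthetases, amino acid synthesis and amino acid transport. Perk, encoded by Eif2ak3, enters the same route from the ER. Ser5 of the Pol_II carboxy-terminal domain is phosphorylated as transcription starts, so tags of this form pile up at gene starts and run at a lower level through transcribed genes. Tag counts measure the polymerase on the gene, not the RNA or the protein, and in bulk chromatin a lower level in every cell and fewer cells that use a gene cannot be told apart.

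Atf4 binds, with a C/EBP partner, to the C/EBP-ATF response element (CARE), searched here as TGATGNAA on both strands of the RefSeq promoters of GRCm38.p6, which run from 250 bases before to 50 after an annotated start. The search covered entries of 29 of the 38 members and none of Cars, Hars, Lars, Nars, Rars, Vars, Wars, Slc7a5 and Atf6. Of these 29, 8 held the letters (27.6%), against 3.97% of all 32851 promoters of this length. A match of each member is shown because it marks which members carry the letters of the element that names this response. Each stretch is given 5′ to 3′ on the strand of its gene with the match in capitals, and its place on mm9 is from an exact match of the promoter to that assembly.
Aars, chr8:113557740-113557769, plus strand: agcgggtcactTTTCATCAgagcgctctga
Gars, chr6:54987954-54987983, plus strand: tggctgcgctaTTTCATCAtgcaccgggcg
Iars, chr13:49777495-49777524, plus strand: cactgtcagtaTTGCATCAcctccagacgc
Tars, chr15:11329410-11329439, minus strand: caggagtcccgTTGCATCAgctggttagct
Yars, chr4:128867139-128867168, plus strand: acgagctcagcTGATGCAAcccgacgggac
Trib3, chr2:152169764-152169793, minus strand: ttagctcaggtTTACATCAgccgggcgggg
Asns, chr6:7643214-7643243, minus strand: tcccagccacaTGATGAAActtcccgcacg
Chac1, chr2:119176774-119176803, plus strand: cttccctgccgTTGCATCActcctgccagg

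The match of Chac1 lay 193 bases before its start. The E-box CACGTG was found in 4 members (Aars, Farsb, Iars and Tars) and in 7.15% of all promoters. Letters of elements read by factors of inflammation were also counted. The GAS letters TTCNNNGAA were in 5 members (Aars, Kars, Shmt2, Slc7a1 and Eif2ak3) and 8.30% of promoters, the ISRE-like GAAANNGAA in 1 (Qars) and 8.56%, and the NF-kB-like GGGNNTTCC in 1 (Chac1) and 5.82%. Neither the UPRE letters TGACGTGG nor the ER stress element (CCAAT and CCACG 9 bases apart) occurred in the 29 promoters, and they occurred in 0.676% and 0.119% of all promoters. These searches read letters only and say nothing of whether a factor was bound.

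Ser5 lay at the starts of nearly all of these genes before and after LPS. A deposited peak overlapped the TSS window of 37 of 38 members in the untreated library, against 48% of coding genes, and of 37 of 38 after LPS, against 45.9%. The exception was Psat1, a phosphoserine aminotransferase of serine synthesis, whose annotated 5′ end held 2, 1 and 8 tags in untreated Ser5, LPS Ser5 and input. Its tags lay at another annotated start 22715 bp downstream, with 193, 123 and 19 tags there and a ratio of 0.777 (0.614 to 0.979). In the untreated library 37 members stood at or above the median TSS window density of coding genes, and 12 stood at or above percentile 90. Those 12 were Dars, Gars, Nars and Sars among the synthetases, Atf4, Atf5, Ddit3, Ddit4, Chac1 and Sesn2 among the regulators, and Slc3a2 and Xbp1.

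Gene body densities were compared per length, as TPM per kb from the 5′ to the 3′ end of the gene. Atf4 was far above the others, with 59.9 in untreated Ser5, 64.7 after LPS and 1.86 in input. Xbp1 and Ddit3 followed, at 18.2 and 17.9 in the untreated library. These densities include the gene start, which makes up more of a short gene. In the untreated inner body Atf4 was at 28.9, Xbp1 at 10.7, Slc3a2 at 8.28 and Ddit3 at 8.26. Over the gene body the synthetases ran from 0.881 at Eprs to 4.52 at Mars in untreated Ser5. The body of Mars includes the 2 kb after the end of Ddit3, and without them 346 of its 536 untreated tags remained. Aars, Sars and Nars came next, at 3.69, 3.65 and 3.63. The median Ser5 over input ratio of the gene bodies was 3.77 for the members in untreated cells and 1.44 for coding genes with enough tags. The gene body of Atf6 did not exceed input in either Ser5 library, at 0.907 and 0.643 times input, and that of Eif2ak3 lay below it after LPS, at 0.822 times. Where a level is close to input, a ratio between the Ser5 libraries is mostly a ratio of background tags.

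**Figure D1:**
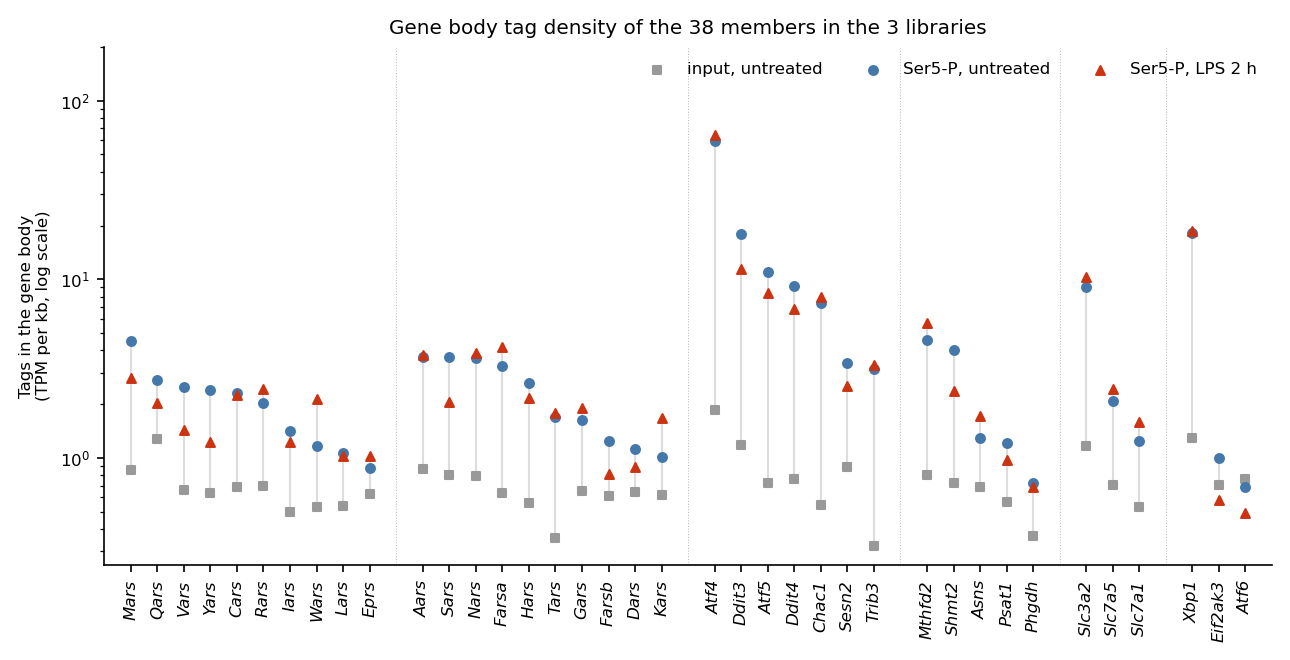
Gene body tag density (TPM per kb, log scale) of the 38 members in the 3 libraries, grouped by role and ordered by the untreated level; circles are untreated Ser5, triangles Ser5 after LPS for 2 h, and squares input. Atf4 stands highest, at 59.9 and 64.7, and the 2 Ser5 values of each gene lie within 2 times of each other.

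None of the 38 members differed by 2 times in the gene body. Of coding genes with enough tags, 5.82% passed 2 times higher and 11.2% passed 2 times lower. The members' ratios ran from 0.517 at Yars to 1.84 at Wars, with a median of 0.976 (0.770 to 1.07). The quartiles of the members were 0.739 and 1.15, and those of coding genes 0.665 and 1.14. At 1.5 times, 2 members were higher (Kars and Wars; 12% of coding genes) and 8 were lower (Ddit3, Eif2ak3, Farsb, Mars, Sars, Shmt2, Vars and Yars; 25.2%). The counting interval lay above 1 for 11 members (15% of coding genes) and below 1 for 17 (34.5%), shares that depend on the number of tags of a gene. Against the coding median of 0.873 it lay above for 16 members and below for 10, a count that was not made for coding genes. After input was subtracted, Kars and Wars were at least 2 times higher (8.58% of coding genes) and Eif2ak3, Farsb, Sars, Shmt2, Vars and Yars at least 2 times lower (20.2%). Relative to the median of coding genes, Wars was the one member past 2 times higher, at 2.11 (7.99% of coding genes).

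In the TSS window no member of the 37 with enough tags was 2 times higher (5.61% of coding genes) and 1 was 2 times lower, Vars (14.1%). The median ratio of the 37 was 0.896 (0.795 to 1.03). At 1.5 times, none was higher (10.1%) and Shmt2 and Vars were lower (29.5%). The interval lay above 1 for Mthfd2 and Slc7a5 (11.5% of coding genes) and below 1 for 13 members (38.1%). Against the coding median of 0.831 it lay above for 11 members and below for 1, a count that was not made for coding genes. In the inner body Kars was at least 2 times higher (6.64%) and Qars, Shmt2 and Yars at least 2 times lower (12.2%), and the median ratio was 0.947 (0.827 to 1.18).

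**Figure D2:**
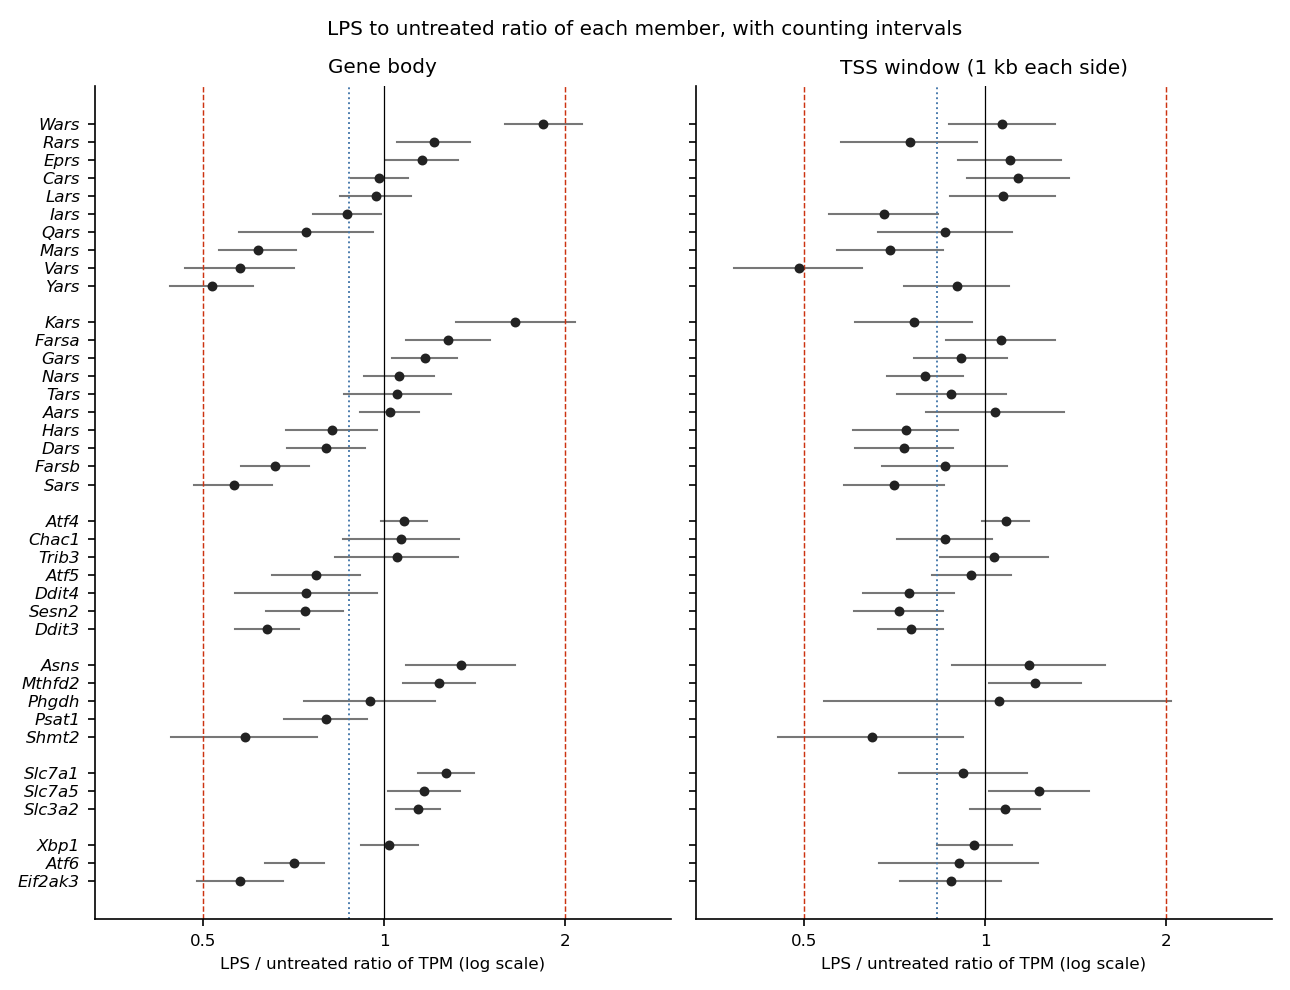
Ratio of LPS to untreated TPM (log scale) of each member in the gene body (left) and the TSS window (right), with 95% counting intervals as bars. Dashed lines mark 2 times higher and lower and dotted lines the coding medians of 0.873 and 0.831; no gene body point passes a dashed line, and Vars, at 0.490, is the one TSS window point that does.

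Among the 10 synthetases grouped here as class I, Eprs included, the gene body ratio was above 1 for 3 (Eprs, Rars and Wars) and below 1 for 7. Their median was 0.919. Of coding genes with enough tags, 63.4% had a gene body ratio below 1. Wars (ENSMUSG00000021266.10, chromosome 12, positions 110098240 to 110132384), which charges tryptophan and is known to be induced by interferon (whose presence here was not settled), had 303 tags in its gene body in untreated Ser5, 458 after LPS and 137 in input. Its ratio of 1.84 (1.59 to 2.14) was the highest of all members. The higher level lay inside the gene, where the inner body held 247, 377 and 127 tags and a ratio of 1.86 (1.58 to 2.19). The TSS window held 210, 184 and 14 tags, a ratio of 1.07 (0.871 to 1.31), and it also covers the start of Wdr25, 98 bp away on the other strand. In 3 equal parts of the inner body the ratio was 2.34 (1.72 to 3.21), 1.59 (1.16 to 2.19) and 1.75 (1.36 to 2.25) from the start to the end.

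Yars (ENSMUSG00000028811.5, chromosome 4, positions 128867004 to 128896851), which charges tyrosine, was at the other end of the range. Its gene body held 542 tags in untreated Ser5, 230 after LPS and 143 in input, a ratio of 0.517 (0.441 to 0.605), just inside the threshold of 2 times. Its inner body, with 434, 178 and 137 tags, passed it at 0.500 (0.417 to 0.596). The ratios were 0.494, 0.545 and 0.487 in the 3 equal parts of the inner body. After LPS the first and second parts lay at or below input, at 0.532 against 0.787 and 0.632 against 0.635 TPM per kb. Their untreated densities were 1.08 and 1.16, so these ratios are largely of background tags. The last part lay above input in both Ser5 libraries, at 3.69 in untreated Ser5, 1.80 after LPS and 0.469 in input. The TSS window, at 234, 172 and 11 tags, had a ratio of 0.896 (0.731 to 1.10), and it holds the start of S100pbp, 33 bp away on the other strand.

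Vars (ENSMUSG00000007029.9, chromosome 17, positions 35137932 to 35153267) charges valine. Its TSS window held 234 tags in untreated Ser5, 94 after LPS and 12 in input, a ratio of 0.490 (0.381 to 0.625), the one call of the window. A second coding gene, D17H6S56E-5, starts 677 bp away on the other strand and shares most of the window. The gene body of Vars held 292, 138 and 76 tags, a ratio of 0.576 (0.467 to 0.708). Its TSS window was also the member window with the most repeated sequence. Of its sequences of 30 bases 18.7% were found more than once, and of those of 45 bases 15.8%. The next lowest TSS window ratio among members with enough tags was that of Shmt2, 0.647 (0.452 to 0.919).

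Mars, which charges methionine, had a gene body ratio of 0.616 (0.530 to 0.714) from 536 and 271 tags. In 3 equal parts of its inner body the ratio was 1.03 (0.737 to 1.43), 0.737 (0.435 to 1.23) and 0.401 (0.309 to 0.516), so the lower level lay toward its end. The 2 kb after the end of the convergent gene Ddit3 fall in that last part, and without them the body of Mars held 346 tags in untreated Ser5 and 220 after LPS, a ratio of 0.775 (0.651 to 0.920), in a comparison added after the values were seen. Qars, which charges glutamine, had an inner body of 96 tags in untreated Ser5, 33 after LPS and 65 in input, a ratio of 0.419 (0.273 to 0.628), the lowest inner body ratio of the members. The inner body of Qars after LPS lay below its input density, at 0.761 against 1.24 TPM per kb. Rars, which charges arginine, was 0.748 (0.575 to 0.969) in the TSS window and 1.32 (1.13 to 1.55) in the inner body. The other class I members, Cars, Eprs, Iars and Lars, had gene body ratios between 0.869 and 1.16.

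Of the 10 class II synthetases 6 had a gene body ratio above 1 and 4 below (63.4% of coding genes lay below), with a median of 1.04. Kars (ENSMUSG00000031948.7, chromosome 8, positions 114517340 to 114535223), which charges lysine, had 137 tags in untreated Ser5, 186 after LPS and 83 in input over its gene body, a ratio of 1.65 (1.32 to 2.08). Its inner body held 73, 151 and 75 tags, a ratio of 2.52 (1.89 to 3.38), the one inner body that passed 2 times higher. In untreated cells this part of the gene lay at the density of input, 0.568 against 0.590 TPM per kb, and after LPS it was 1.43. The TSS window did not rise with it, at 213, 133 and 14 tags and a ratio of 0.761 (0.608 to 0.949). Relative to the coding median of the TSS window this was 0.916 (0.732 to 1.14), an interval that holds 1. The window also covers the start of Terf2ip, 36 bp away on the other strand. Tags of the TSS window were 24.6 times as dense as those of the inner body in untreated Ser5 and 7.43 times after LPS.

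Sars (ENSMUSG00000068739.7, chromosome 3, positions 108227783 to 108248127), which charges serine, had the lowest ratio of class II. Its gene body held 566, 261 and 123 tags, a ratio of 0.562 (0.483 to 0.652). Its TSS window was at 0.705 (0.581 to 0.853) and its inner body at 0.548 (0.457 to 0.656). Relative to the coding medians these were 0.849 (0.700 to 1.03) and 0.619 (0.516 to 0.740). Only the interval of the inner body lay below the coding median. No other coding gene reaches into the body or the TSS window of Sars. Farsb and Farsa encode the beta and alpha subunits of the phenylalanine enzyme, which works as a tetramer of both. Their gene body ratios lay on either side of 1, at 0.659 (0.578 to 0.750) for Farsb and 1.28 for Farsa, whose interval began at 1.09, so that their intervals did not overlap. The TSS window intervals of the pair did overlap, at 0.857 (0.674 to 1.09) and 1.06 (0.861 to 1.31). Aars, Nars and Tars had gene body intervals that held 1, Gars was at 1.17 (1.03 to 1.33), and Dars and Hars were at 0.802 (0.691 to 0.930) and 0.819 (0.688 to 0.972). Hars shares its TSS window with its mitochondrial counterpart Hars2, whose start lies 197 bp away.

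**Figure D3:**
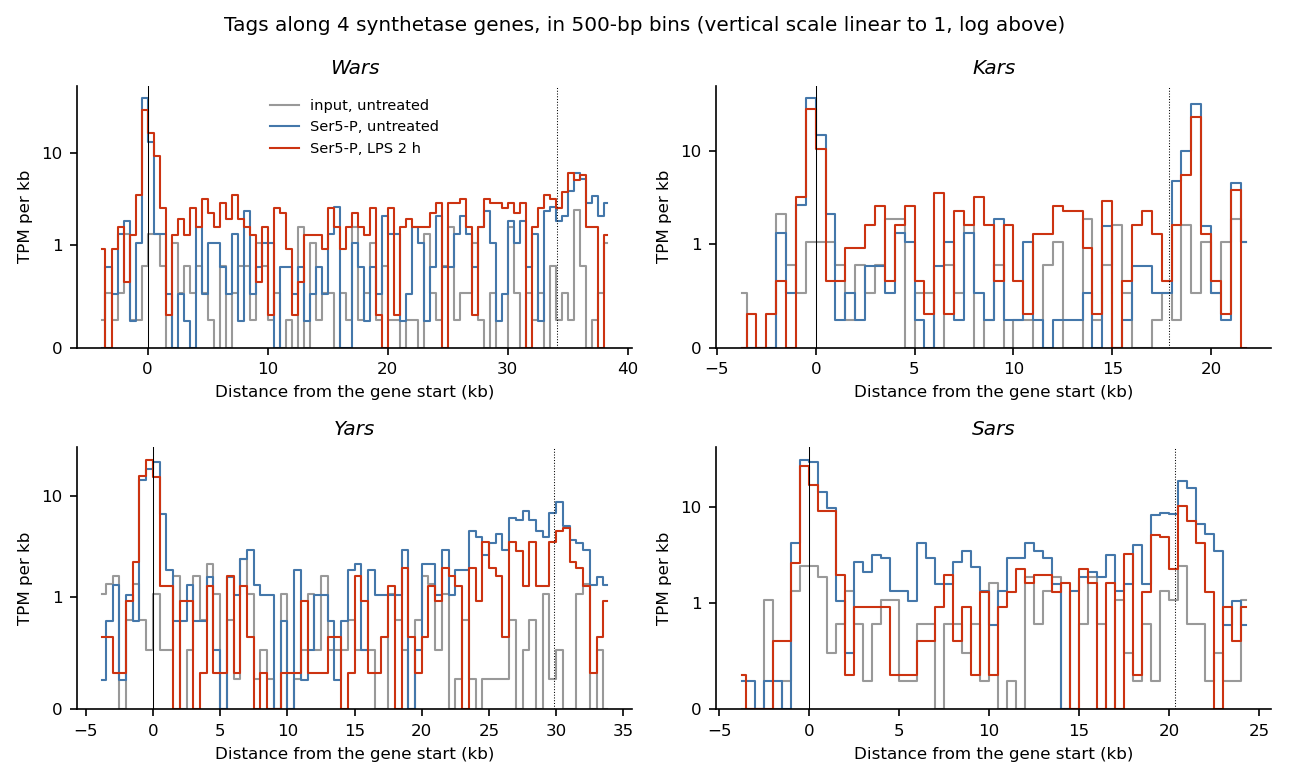
TPM per kb in 500-bp bins along 4 synthetase genes by distance from the gene start in kb (solid vertical line; the dotted line is the gene end), for untreated Ser5, Ser5 after LPS and input, on a scale that is linear to 1 and logarithmic above. Taken over the inner body the LPS level is higher in Wars and Kars (ratios of 1.86 and 2.52) and lower in Yars and Sars (0.500 and 0.548), although the lines cross in single bins, and all 4 genes keep a high start.

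Tags also collected at the ends of many of these genes. In the 2 kb after the gene end the density was higher than in the inner body for 35 of 38 members in untreated Ser5, against 79% of coding genes with enough tags. The median over all 38 was 2.27 times the inner body density, beside 1.79 for coding genes. After LPS the density was higher for 32 of 38, against 71.4%, and the median over all 38 was 1.85 times, beside 1.56. Where no other coding start lay within 1 kb of these 2 kb, it was higher for 29 of 32 members in untreated Ser5 (77.6% of coding genes). After LPS this held for 27 of 32 (69.2%). The medians over all 32 were 2.05 times in untreated Ser5 and 1.69 times after LPS. Between the Ser5 libraries the ratio of these 2 kb had a median of 0.771, beside 0.778 for coding genes. None of the 38 was 2 times higher, against 9.08% of coding genes, and 7 were 2 times lower, against 24.9%. In the 32 members with no other coding start near, the median was 0.771 and 6 were 2 times lower (25.8% of such coding genes). After Sars there were 185 tags in untreated Ser5, 75 after LPS and 15 in input, a ratio of 0.494 (0.373 to 0.649). Wars, whose body was higher, had 53, 56 and 15 tags there, a ratio of 1.29 (0.869 to 1.91).

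Start and inner body did not always move alike. The interval of the inner body ratio lay above that of the TSS window for 4 of 37 members (Rars, Wars, Kars and Slc7a1), against 10.7% of coding genes, and below it for 4 (Qars, Yars, Atf5 and Eif2ak3), against 6.19%, shares that also depend on the number of tags of a gene. The TSS window was 9.80 times (7.04 to 13.4) as dense as the inner body at the median member in untreated Ser5 and 8.63 times (6.64 to 12.5) after LPS. Coding genes had 9.54 and 8.94 times.

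**Figure D4:**
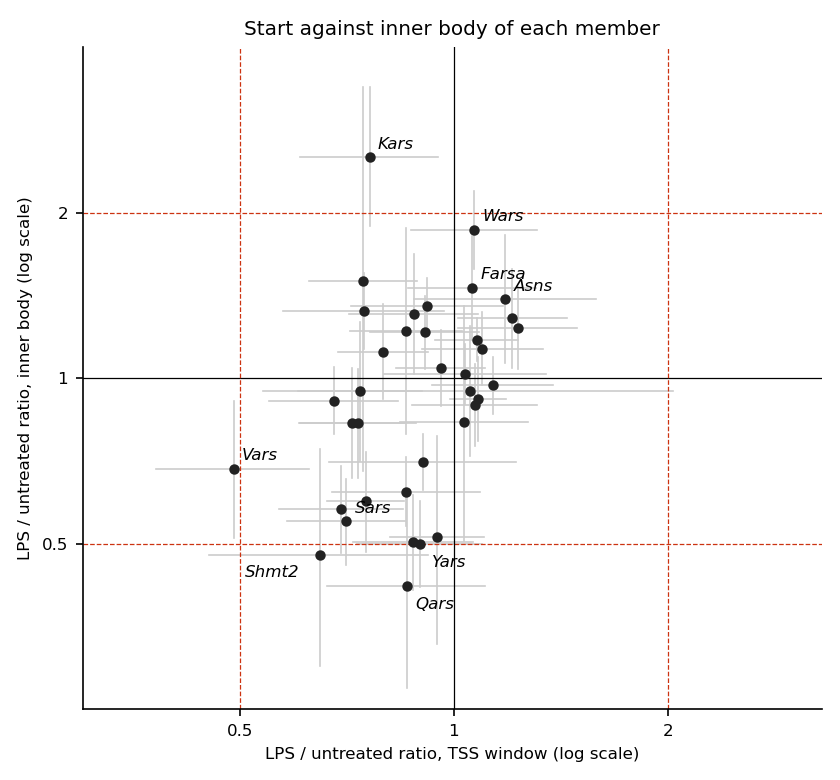
LPS to untreated ratio in the inner body against that in the TSS window (both log scales) for 37 members, with 95% counting intervals as grey bars and dashed lines at 2 times higher and lower. Kars lies highest, at 2.52 in the inner body and 0.761 in the TSS window; Qars lies lowest, at 0.419 and 0.858, and Vars farthest to the left, at 0.490.

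The regulators of the integrated stress response showed no member 2 times higher or lower. Atf4 (ENSMUSG00000042406.6, chromosome 15, positions 80085614 to 80087970) had 1075 gene body tags in untreated Ser5, 953 after LPS and 33 in input, a ratio of 1.08 (0.989 to 1.18), the highest of the 7. Ddit3 (ENSMUSG00000025408.9, chromosome 10, positions 126727830 to 126733344), which encodes the transcription factor Chop, had 753, 395 and 49 tags and the lowest ratio, 0.639 (0.565 to 0.723). Its TSS window held 662, 408 and 22 tags, a ratio of 0.751 (0.662 to 0.851). Relative to the coding median this was 0.904 (0.797 to 1.02), an interval that holds 1. Ddit3 and Mars converge and overlap by 68 bp at their ends, so the 2 kb after the end of Ddit3, with a ratio of 0.327 (0.235 to 0.448), lie inside Mars. Among the Atf4 targets, Trib3, a pseudokinase that holds Atf4 back, and Chac1, which degrades glutathione, had ratios of 1.05 (0.829 to 1.33) and 1.07 (0.856 to 1.33). Ddit4 and Sesn2, both inhibitors of mTORC1 signalling, were at 0.743 (0.564 to 0.974) and 0.738 (0.636 to 0.855). Atf5, a transcription factor related to Atf4, was at 0.770 (0.651 to 0.911), and its TSS window holds the starts of Il4i1 and Nup62, which lie 288 and 570 bp away.

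Enzymes of amino acid and one-carbon synthesis went in both directions. Asns (ENSMUSG00000029752.6, chromosome 6, positions 7625169 to 7643254), the asparagine synthetase and a standard reporter of amino acid shortage, had 177 gene body tags in untreated Ser5, 195 after LPS and 93 in input. Its ratio was 1.34 (1.09 to 1.66), with a TSS window ratio of 1.18 (0.880 to 1.59). Mthfd2, a mitochondrial folate enzyme, was at 1.24 (1.08 to 1.42), from 416, 422 and 72 tags. Shmt2 (ENSMUSG00000025403.3, chromosome 10, positions 126954195 to 126959491), which moves a carbon unit from serine to folate in mitochondria, had 162, 78 and 29 tags and a ratio of 0.587 (0.442 to 0.773). Its inner body, at 74, 29 and 20 tags, passed 2 times lower at 0.478 (0.300 to 0.743). Phgdh, which opens serine synthesis, had only 22, 19 and 8 tags in its TSS window and a gene body ratio of 0.947 (0.736 to 1.22).

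All 3 transporters had gene body intervals above 1 (15% of coding genes). Slc7a1, a carrier of arginine and other cationic amino acids, had 690 tags in untreated Ser5, 718 after LPS and 288 in input and the highest ratio, 1.27 (1.14 to 1.41). Slc7a5 and Slc3a2 encode the light and heavy chains of a carrier of large neutral amino acids. Slc3a2 had the lowest ratio of the group, 1.14 (1.05 to 1.24), from 1135, 1060 and 145 tags, and Slc7a5 was at 1.17 (1.02 to 1.34). Slc7a5 lies wholly within the annotated span of Gm20388, and a second annotated start of Slc3a2, 9472 bp downstream of its 5′ end, held 560, 526 and 16 tags at a ratio of 1.14 (1.01 to 1.29).

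Of the ER stress genes Xbp1, which encodes a transcription factor and whose mRNA is spliced by Ire1, had a ratio of 1.02 (0.915 to 1.14). Its gene body held 726 tags in untreated Ser5, 608 after LPS and 51 in input. Eif2ak3 (Perk) had 463, 219 and 321 tags, a ratio of 0.576 (0.489 to 0.678). Its TSS window, at 256, 184 and 20 tags, was well above input in both libraries and had a ratio of 0.876 (0.721 to 1.06). Atf6 had a gene body ratio of 0.710 (0.634 to 0.793) on a body no denser than input.

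The 8 members with a CARE match, shown above by sequence, had a median gene body ratio of 1.05, with 6 above 1 and 2 below. They ran from 0.517 at Yars to 1.34 at Asns. The 21 members whose promoter held no match had a median of 0.800, with 8 above 1 and 13 below, and ran from 0.562 to 1.65. The coding median was 0.873, and 63.4% of coding genes lay below 1. In the TSS window the medians were 0.903 with a match and 0.858 without, beside 0.831 for coding genes. The set without a match includes Psat1, whose window held few tags. The gene body ranges overlap, and no comparison between these sets was tested.

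Some further genes of the integrated stress response differed by more than any member. Of 22 further genes of the integrated stress response, 5 were at least 2 times higher in the gene body (5.82% of coding genes) and 1 at least 2 times lower (11.2%). In the TSS window 3 were at least 2 times higher (5.61%) and 1 at least 2 times lower (14.1%), with a median ratio of 0.927. Slc7a11, which imports cystine, had 212 tags in untreated Ser5, 3623 after LPS and 322 in input, a ratio of 20.8 (18.1 to 24.0). Its body held fewer tags in untreated Ser5 than in input, so this ratio starts from a background level. Atf3, a transcription factor of the same family as Atf4, had 943, 2572 and 122 tags and a ratio of 3.32 (3.08 to 3.59), and Ppp1r15a (Gadd34), which reverses the phosphorylation of eIF2, had 227, 526 and 16 tags and a ratio of 2.82 (2.41 to 3.31). The others past the threshold, named after their values were seen, were Nupr1 at 2.38 and Eif2ak2 at 2.26. Stc2 was lower, at 0.392 (0.163 to 0.854) from 28, 9 and 27 tags. Its body held about as many tags in untreated Ser5 as in input, so this ratio too starts from a background level.

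Of the 17 mitochondrial synthetases 2 had a gene body ratio above 1 and 15 below (63.4% of coding genes lay below). The interval lay below 1 for 11 (34.5% of coding genes) and above 1 for none (15%). Cars2 was 2 times lower (11.2% of coding genes), at 0.422 (0.354 to 0.501) from 520, 180 and 156 tags. The median of the 17 was 0.754, beside 0.976 for the 20 cytosolic synthetases and 0.873 for coding genes. The 3 scaffold proteins of the multi-synthetase complex (Aimp1, Aimp2 and Eef1e1) lay between 0.790 and 1.04. Of 14 further genes of the unfolded protein response none was 2 times higher (5.82% of coding genes) or 2 times lower (11.2%). The range was 0.550 to 1.36, and the interval lay below 1 for 7 (34.5%) and above 1 for 2 (15%).

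**Figure D5:**
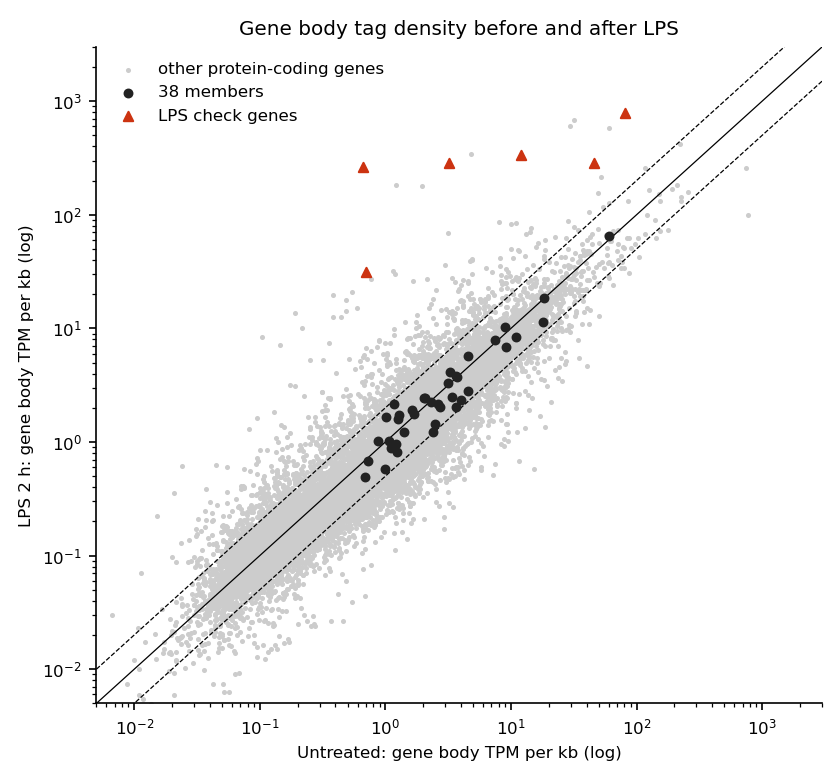
Gene body TPM per kb in untreated Ser5 (horizontal) and Ser5 after LPS (vertical), both on log scales, for coding genes with enough tags (grey; 12 with 0 tags in 1 library are not drawn), the 38 members (black) and the 6 LPS check genes (red triangles). All members lie between the dashed lines at 2 times higher and lower, and the check genes lie at 6.18 times and above.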

How the data were processed

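Ser5 ChIP-Seq of untreated and LPS-treated BMDM and input DNA of untreated BMDM were analysed, with 1 library each, grouped by the sample labels. The authors aligned trimmed reads to mm9 with Bowtie, keeping unique matches, and called peaks with MACS on each Ser5 library against input. Versions of both are not given in the sources used here. The deposited tag files give where each aligned tag lies and on which strand, and the deposited peak lists hold a score that is minus 10 times log10 of the MACS p-value. The methods give the tag lengths of the 2 Ser5 libraries the other way round from the files, and the values printed are those of the files.

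The 5′ ends of tags on chromosomes 1 to 19 and X were counted and scaled to TPM, tags per 1000000 tags of the library. The gene's annotated 5′ end was its start. Regions came from GENCODE M1, on the same assembly. Regions of 0 tags were set to 0.5 tags. Intervals are exact conditional for ratios and order-statistic for medians. No test was made with 1 library per condition. Named genes were all members past the rule of size, those with the highest and lowest gene body ratio of each role group, and those nearest the threshold. Qars was added after its values were seen, as were the 3 equal parts of the inner body and the 2 kb after the gene end. The members and lists were chosen with earlier results of these data known. Alternatives were duplicate tags removed, a move of tags by 75 bp, other scalings, starts, windows and thresholds, and subtraction of input. The computations used Python 3.11.15, numpy 2.4.6, scipy 1.17.1, pandas 2.3.3, numba 0.67.0 and matplotlib 3.10.9, and the interval and repeat functions were tested on simulated data. Sequences are from RefSeq (GRCm38.p6). A part of the promoter sequence is not reported here.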

Additional observations from a re-analysis of the deposited data

How the results depend on the processing

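No paired analysis was possible because each condition has 1 library. Of 72 alternative values of the main results, 56 kept within 1.5 times of a count or within the interval of a median. The number of members at least 2 times higher in the gene body, 0, became 1 when scaled to the coding median, 2 after subtraction of input, 2 at a threshold of 1.5 times and 1 in the inner body. The number lower, 0, became 6 after subtraction of input, 8 at 1.5 times and 3 in the inner body. After subtraction Eif2ak3 had no tags left in the LPS library, so its ratio there rests on the value set for 0 tags. In the TSS window the 1 lower member, Vars, was lost (0) with 1 tag per position and strand, with scaling to tags outside peaks or to the coding median, at the transcript start with the most tags, and without members that share their region, and there were 2 at 1.5 times. The ratio of Vars ran from 0.462 to 0.589 over its 6 alternatives. Scaled to the coding median, the median ratio of the members became 1.12 in the gene body and 1.08 in the TSS window. The gene body median also lay above 1 with 1 tag per position and strand (1.03), with scaling to tags outside peaks (1.05) and without members that share their region (1.05), so its direction against 1 is not settled. The median Ser5 over input became 7.18 when scaled to tags outside peaks. Of 78 alternative values of 13 single ratios, 66 stayed within the interval of the reported value. Without replicates, counting error is the only error that could be given.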
